A study of Equus caballus with 9 samples.

Results

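The genes described here are the 109 of 21689 in the count table that sat at the counting floor in the ESC-tenocyte lines ES_HJ and ES_PW and were clearly present in every adult and fetal tenocyte line. A gene was taken when it had at most 3 estimated counts in ES_HJ and in ES_PW and at least 20 CPM (the count scaled to the total of its library) in each of the 6 adult and fetal libraries. The adult mean also had to lie between 0.25 and 4 times the fetal mean. The genes were thus chosen by measured values, namely the levels in these 8 libraries, and those levels are given as a description. The third ESC-tenocyte line, ES_IG, was not used to choose them, so its values are the ones that the choice did not fix.

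RNA sequencing was performed on equine cells cultured in 3D collagen gels, with 3 adult tenocyte lines, 3 fetal tenocyte lines and 3 lines of tenocytes derived from embryonic stem cells (ESCs), and 1 library per line. The comparison asks how far ESC-tenocytes express the genes of tenocytes isolated from tendon. Adult cells came from horses of 2 to 6 years, at passage 4 for CD, 6 for TB130911 and 4 for TB250718B. Fetal cells were taken at 271, 319 and 320 days of gestation, with 271d at passage 5, 319d at passage 8 and 320d at passage 4. Of the ESC lines, ES_HJ was at passage 12, ES_IG at passage 16 and ES_PW at passage 14. The ESCs had been maintained on mitotically inactivated mouse embryonic fibroblasts with leukaemia inhibitory factor (LIF), and were differentiated by 14 days in the gels without LIF. Per the study's methods, the ESC gels were kept in ESC medium and the adult and fetal gels in tenocyte medium. Effects of medium and of cell source therefore cannot be told apart. No genetic change or further treatment is labelled in any group. The adult and fetal lines had been expanded as monolayers in serum, and the share of ESC-derived cells that became tenocytes was not quantified by the study. The fetal lines are of different gestational ages and, per the study's methods, each ESC line came from its own embryo.

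Tenocytes are the fibroblast-like cells of tendon, which make and maintain a matrix of aligned collagen fibres. ESCs are pluripotent and can give rise to many lineages, and cells in a collagen gel held under tension can take on a tendon fate. A culture of differentiated ESCs can therefore be a mixture, and a bulk library reads the sum over its cells. The deposited table gives Ensembl identifiers without names, and none of the 21689 identifiers matched the gene table used for names, so the genes are described as a set and by 4 identifiers. For the same reason tenocyte and other cell type markers were not checked here, and no role is given for any of the genes.

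Total counts ran from 8965593 (ES_PW) to 20705852 (319d). The ESC libraries, at 9412112 (ES_HJ), 10772461 (ES_IG) and 8965593 (ES_PW), were close to each other in depth, and the floor of 3 counts (the upper limit for a gene with no reads) corresponded to 0.319, 0.278 and 0.335 CPM in them. CPM values are not divided by transcript length, so a difference in CPM between genes is not a difference in transcript number. Where genes are ordered or grouped by CPM, this is by the share of reads they took.

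In the adult and fetal tenocytes the 109 genes together took 1.43% (CD), 1.38% (TB130911), 1.46% (TB250718B), 1.12% (271d), 1.27% (319d) and 1.43% (320d) of the library. Their summed level was 10.9 CPM in ES_HJ and 11.7 CPM in ES_PW, which the rule fixed. In ES_IG it was 1059 CPM, or 0.106% of the library. The ES_IG sum was 7.86% of the mean sum of the 6 adult and fetal libraries, while ES_HJ stood at 0.0812% and ES_PW at 0.0870% of it. ES_IG, the line that the rule did not use, was thus not at the low level that the rule required of ES_HJ and ES_PW. The set can be described as tenocyte genes that ESC-tenocytes do not activate only for ES_HJ and ES_PW, where the rule fixed it. In bulk libraries fewer cells that express a gene and less RNA of that gene per cell cannot be told apart. Whether the ES_IG library holds RNA or reads from the adult or fetal tenocyte samples was not tested, and the ES_IG percentages below are levels in that library, whatever their source.

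**Figure D1:**
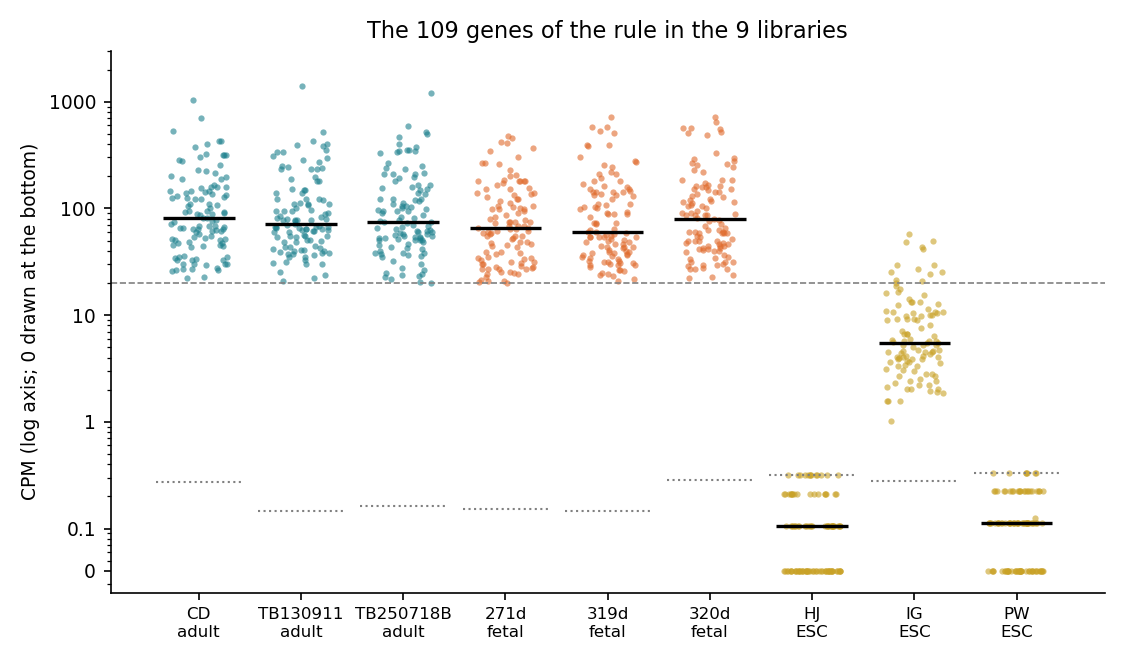
Level of each of the 109 genes (points, CPM on a log axis, with 0 drawn at the bottom) in the 9 libraries, with the median (black bar), the 3-count floor of each library (dotted) and the 20 CPM limit of the rule (dashed). Adult and fetal medians lie between 59.8 and 81.6 CPM, the ES_IG median is 5.48 CPM with every gene above the floor, and ES_HJ and ES_PW lie at or under it.

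The level in the adult and fetal libraries was set in part by the rule. The mean over the 6 libraries ran from 26.0 to 881 CPM with a median of 73.4 CPM, and 25 genes had a mean of 20 to 50 CPM, 41 of 50 to 100, 22 of 100 to 200 and 21 above that. The genes varied between the tenocyte lines: the highest of the 6 libraries was 1.22 to 12.2 times the lowest, with a median of 2.28, and this ratio was under 2 for 40 genes and at least 5 for 14. The median coefficient of variation over the 6 libraries was 32.6%, against 16.4% over the 5577 other genes that met the adult and fetal conditions of the rule, whose median mean was 64.3 CPM. The lowest of the 6 values fell most often in 271d (36 genes) and 319d (22 genes).

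In the lines that defined the set, counts were few. Of the 109 genes, 23 had 0 counts in both ES_HJ and ES_PW, 43 had 0 in 1 of them, and 43 had at least 1 count in both. The total over all 109 genes was 103 counts in ES_HJ and 105 in ES_PW, against 11413 in ES_IG. Measured against the floor of 3 counts per library, the adult and fetal mean was at least 81.5-fold higher than ES_HJ and at least 77.6-fold higher than ES_PW for every gene, with medians of 230 and 219.

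All 109 genes were above 3 counts in ES_IG, and each had more counts there than in ES_HJ and ES_PW together. ES_IG counts ran from 11 to 623 with a median of 59. Among all 8522 genes with at most 3 counts in ES_HJ and in ES_PW, 11.5% were above 3 counts in ES_IG. That background holds many genes that the tenocytes also lack, and the share rose with the tenocyte level: 24.3% at a tenocyte mean of 1 to 2 CPM (222 genes), 41.6% at 2 to 5 CPM (238), 71.5% at 5 to 10 CPM (172) and 87.3% at 10 to 20 CPM (150). Of the genes at the floor in ES_HJ and ES_PW that failed another condition of the rule, 103 of 111 with a tenocyte mean of 20 to 50 CPM and 30 of 32 with a higher mean were above 3 counts in ES_IG. With 1 library there is no replicate of ES_IG, and the intervals below cover counting error only.

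As a percentage of the adult and fetal mean of the same gene, the ES_IG level ran from 2.28% to 20.3% with a median of 7.57% and quartiles of 5.87% and 9.25%. It was under 3% for 3 genes, 3% to 5% for 15, 5% to 10% for 74, 10% to 15% for 15 and above that for 2. ES_IG was thus at most 10% of the tenocyte mean for 92 of 109 genes, where 4.26% of all 5686 genes that met the adult and fetal conditions had so low a level. At most 0.25 of the tenocyte mean was reached by all 109 genes and by 9.69% of the 5686. ES_IG was below the lowest of the 6 tenocyte libraries for all 109 genes, with the lowest tenocyte library 8.95 times ES_IG in the median and 1.04 times at the least. The genes were low in all 3 ESC-tenocyte lines, yet ES_IG stood above the 3-count floor of ES_HJ by 3.20-fold to 181-fold (median 17.2) and above that of ES_PW by 3.05-fold to 173-fold (median 16.4). Because no gene had more than 3 counts in ES_HJ or ES_PW, the measured fold between the lines was at least this ratio. It equalled the ratio for a gene with 3 counts, and counting error is not included.

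**Figure D2:**
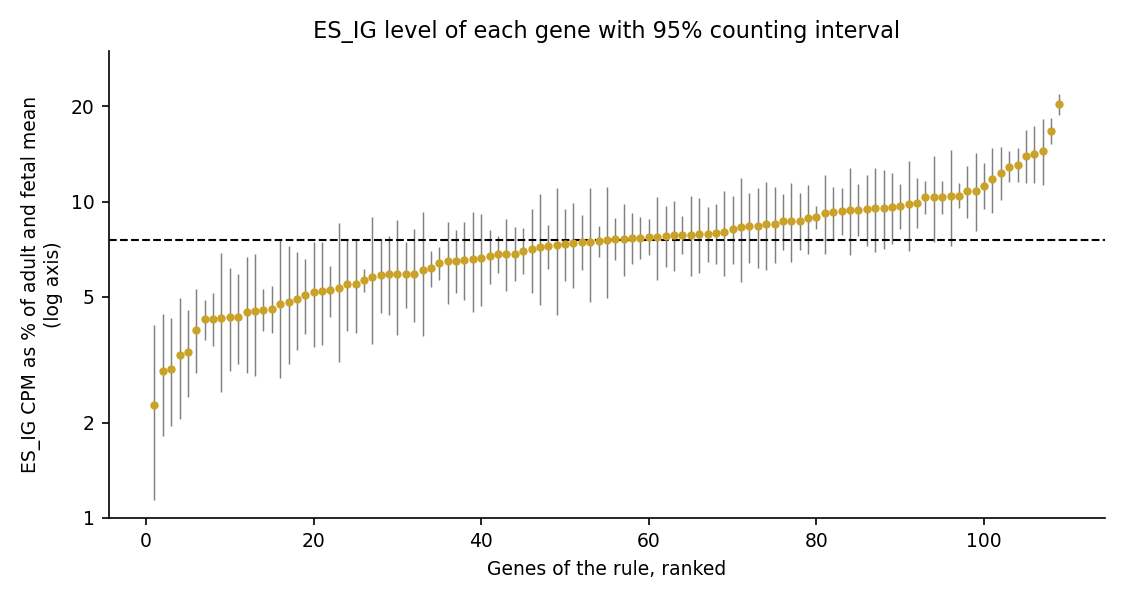
ES_IG level of each of the 109 genes as a percentage of its adult and fetal mean (log axis), in rank order, with exact 95% Poisson intervals of the ES_IG count; the dashed line is the median of 7.57%. The middle of the ranking is flat, with 74 genes between 5% and 10%, and the top gene reaches 20.3%.

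The gene with the highest tenocyte mean in CPM was ENSECAG00000018126. It measured 1047 (CD), 1405 (TB130911) and 1205 (TB250718B) CPM in the adult lines and 186 (271d), 718 (319d) and 725 (320d) CPM in the fetal lines. It had 1 count in ES_HJ, 2 in ES_PW and 535 in ES_IG (49.7 CPM), which is 5.64% of the tenocyte mean with a 95% interval of 5.17% to 6.14%. All adult lines were above all fetal lines, with 271d the lowest. The fitted adult to fetal log2 fold change was 1.23 (SE 1.55) with all 9 libraries and 1.24 (SE 0.49) with the 6 adult and fetal libraries.

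The lowest tenocyte mean belonged to ENSECAG00000029663, with 27.1 (CD), 20.9 (TB130911) and 26.5 (TB250718B) CPM in the adult lines and 29.8 (271d), 24.4 (319d) and 27.1 (320d) CPM in the fetal lines. It was at 0 in ES_HJ and ES_PW and had an estimated count of 20.4 (1.89 CPM) in ES_IG, or 7.28% of the mean (95% interval 4.37% to 11.0%). The adult and fetal values overlapped, and the median percentage over the set lay within the interval of this gene. The fitted log2 fold change was -0.03 (SE 0.18) over the 6 adult and fetal libraries.

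The gene furthest up in ES_IG was ENSECAG00000014155, which reached 57.8 CPM (623 counts) there and had 2 counts in ES_HJ and 0 in ES_PW. Its adult values were 86.4 (CD), 234 (TB130911) and 59.99 (TB250718B) CPM and its fetal values 113 (271d), 574 (319d) and 642 (320d) CPM. The tenocyte lines thus differed from each other by a wide margin, and ES_IG was almost as high as TB250718B. Its percentage of the tenocyte mean was 20.3% (95% interval 18.7% to 21.9%), and the fitted log2 fold change was -1.75 (SE 0.73) over the 6 adult and fetal libraries.

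The lowest percentage was that of ENSECAG00000000931, with 11 counts (1.02 CPM) in ES_IG, 0 in ES_HJ and 2 in ES_PW. Its adult values were 71.5 (CD), 22.5 (TB130911) and 34.9 (TB250718B) CPM and its fetal values 34.6 (271d), 26.7 (319d) and 78.7 (320d) CPM. ES_IG was at 2.28% of the mean (95% interval 1.14% to 4.08%), an interval that does not reach the set's median. CD and 320d were the high libraries, and the adult and fetal values overlapped. These were also the adult and fetal libraries with the lowest total counts (11109492 in CD and 10568491 in 320d). Whether depth or batch plays a part was not tested.

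Across the 109 genes the ES_IG levels followed the tenocyte levels. Pearson's r of log2 CPM between ES_IG and the mean of the 6 adult and fetal libraries was 0.904 and Spearman's rho 0.885 (n = 109 genes, which share libraries, depth and transcript length and are not replicates). The standard deviation (SD) of the log2 ratio of ES_IG to that mean was 0.54, of which counting alone would give 0.20. The same SD for each tenocyte library against the mean of the other 5 was 0.53 (TB130911), 0.69 (TB250718B), 0.62 (CD), 0.75 (271d), 0.67 (319d) and 0.64 (320d). The SD for ES_IG thus lay within the range of those of the single tenocyte lines. Over the 5577 other genes that met the adult and fetal conditions, the SD for ES_IG was 1.12 around a median log2 ratio of -0.06, and that for the single tenocyte lines 0.32 to 0.44. The tenocyte lines thus had a wider spread over the set than over the other genes, which widens the range that ES_IG is set against.

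**Figure D3:**
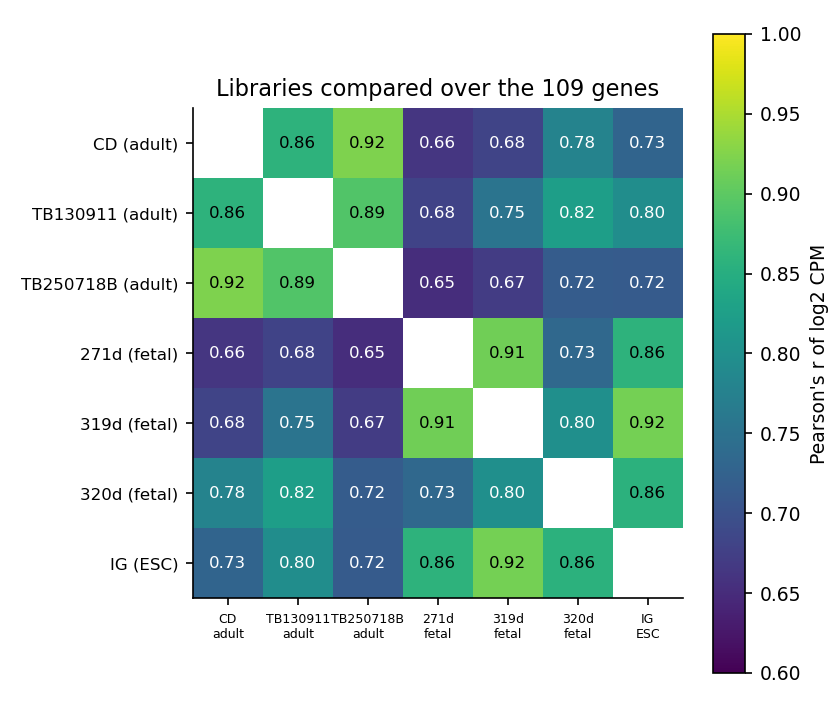
Pearson's r of log2 CPM over the 109 genes between each pair of the 6 adult and fetal libraries and ES_IG (colour scale from 0.60 to 1.00); ES_HJ and ES_PW are left out because they are at the floor. ES_IG is nearest to 319d (0.92) and least near to TB250718B (0.72) and CD (0.73).

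Of the single lines, ES_IG was most like 319d (r = 0.917), followed by 271d (0.859) and 320d (0.858), and then by the adult lines TB130911 (0.796), CD (0.729) and TB250718B (0.716). The fetal lines 271d and 319d had an r of 0.914 with each other, and the adult lines TB250718B and CD 0.923. The log2 profiles of ES_IG, the adult mean and the fetal mean were each centred on their median over the set. ES_IG then lay nearer to the fetal than to the adult mean for 79 of 109 genes (72.5%). Over the 5577 other genes that met the adult and fetal conditions, centred in the same way, it did so for 3165 (56.8%). The difference between these shares was not tested. With mean centring it was 82 genes, and leaving out 1 adult or fetal library at a time gave 73 to 79, with 73 both without 319d and without 320d. The SD of the log2 difference was 0.45 between ES_IG and the fetal mean, 0.81 between ES_IG and the adult mean and 0.76 between the adult and fetal means. The pattern was also found outside the set, since of the 115 other genes whose mean level in ES_HJ and ES_PW was under 1% of the tenocyte mean, 90 (78.3%) were nearer to the fetal mean.

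The same values can be read with the genes split by whether the adult and fetal lines overlap, which restates the nearness to the fetal mean and is no separate evidence of it. All adult lines were above all fetal lines for 30 of the 109 genes, and all fetal lines were above all adult lines for 13. Over the 5686 genes that met the adult and fetal conditions, the background shares were 9.9% and 19%. The groups overlapped for the other 66 genes. For the 30 adult-higher genes the ES_IG level was 4.52% of the adult mean and 8.18% of the fetal mean in the median. For the 13 fetal-higher genes these were 13.0% and 7.21%, and for the 66 overlapping genes 7.93% and 7.64%. The percentage of the fetal mean thus stayed between 7.21% and 8.18% in the 3 classes, while that of the adult mean ran from 4.52% to 13.0%. Over all 109 genes the median was 7.59% of the adult and 7.68% of the fetal mean, and 7.04% to 8.49% of each of the 6 libraries taken singly.

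**Figure D4:**
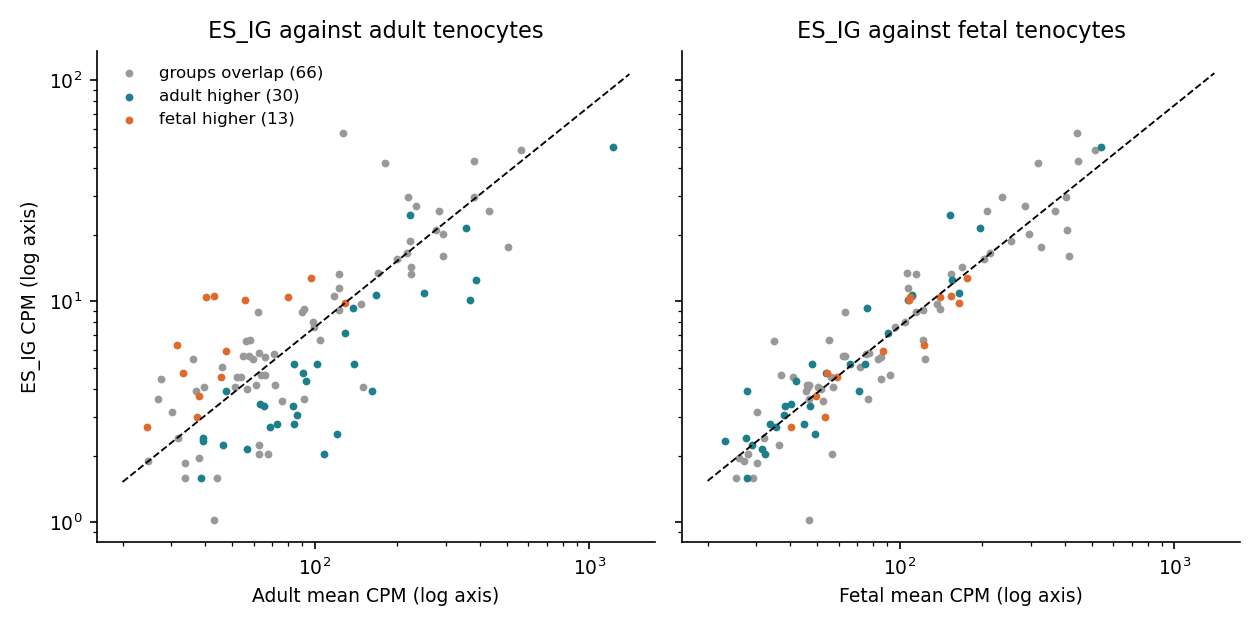
ES_IG level against the adult mean (left) and the fetal mean (right) of each of the 109 genes, both in CPM on log axes, coloured by whether the adult and fetal lines overlap; the dashed line marks a constant percentage of the group mean, the median over the genes. Against the adult mean the 30 adult-higher genes fall mostly below the line and the 13 fetal-higher genes above it, whereas against the fetal mean the classes lie together.

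The adult to fetal difference itself was bounded by the rule and is given as a description. The adult mean was above the fetal mean for 63 genes and below it for 46, with a log2 ratio of -1.95 to 1.78 (median 0.10). The ratio was beyond 2-fold for 13 genes with the adult mean higher and for 6 with the fetal mean higher. With edgeR's quasi-likelihood test on all 9 libraries no member of the set passed an adjusted p under 0.01 (0 of 109, background 0.0985% of 13197 genes), 1 had an unadjusted p under 0.05 (background 22.5%), and DESeq2 on the same libraries called 0 (background 10.9%) with 0 at an unadjusted p under 0.05 (background 28.7%). The spread that this fit assigns to the genes includes the ESC-tenocyte lines, where ES_IG was far from ES_HJ and ES_PW: the median dispersion of the set was 1.04 with all 9 libraries but 0.0636 with the 6 adult and fetal libraries, while that of all genes tested was 0.0533 and 0.0539. With the 6 libraries alone edgeR still called 0 at an adjusted p under 0.01 (background 0.0155% of 12882 genes), 18 at an adjusted p under 0.05 (background 6.96%) and 51 at an unadjusted p under 0.05 (background 24.8%). DESeq2 on the 6 libraries called 24 at an adjusted p under 0.01 (background 10.4%), 19 of them higher in adult (background 4.94%) and 5 lower (background 5.46%). Nothing is read from these counts, because the rule limits the ratio. In the fit of all 9 libraries, 78 genes were called higher in adult than in ESC-tenocytes (background 20.1%) and 74 higher in fetal than in ESC-tenocytes (background 19%), contrasts that the rule had used.

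The level of ES_IG was next followed beyond the set, over genes that met the same adult and fetal conditions but were present in ES_HJ and ES_PW. ES_IG was above both ES_HJ and ES_PW for all 109 genes and for 30.3% of the 5686. Where the mean of ES_HJ and ES_PW was under 1% of the tenocyte mean (115 genes), the ES_IG median was 8.08% and ES_IG was above both lines for all 115. Where that mean was 1% to 3% (66 genes) the ES_IG median was 9.02%, at 3% to 10% (101 genes) it was 13.0%, and at 10% to 30% (301 genes) it was 25.4%. Expressed as the ES_IG percentage minus that of ES_HJ and ES_PW, the median difference was 7.55 percentage points for the set and 7.85, 7.08, 7.69 and 5.47 points in these classes. It was 1.67 points at 30% to 60% (646 genes), -1.97 at 60% to 100% (1452 genes), -11.4 at 100% to 200% (2450 genes) and -32.5 at higher levels (446 genes). The genes were classed by the same ES_HJ and ES_PW level that is subtracted, which by construction favours a positive difference in the low classes and a negative one in the high classes, so these differences are a description only.

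**Figure D5:**
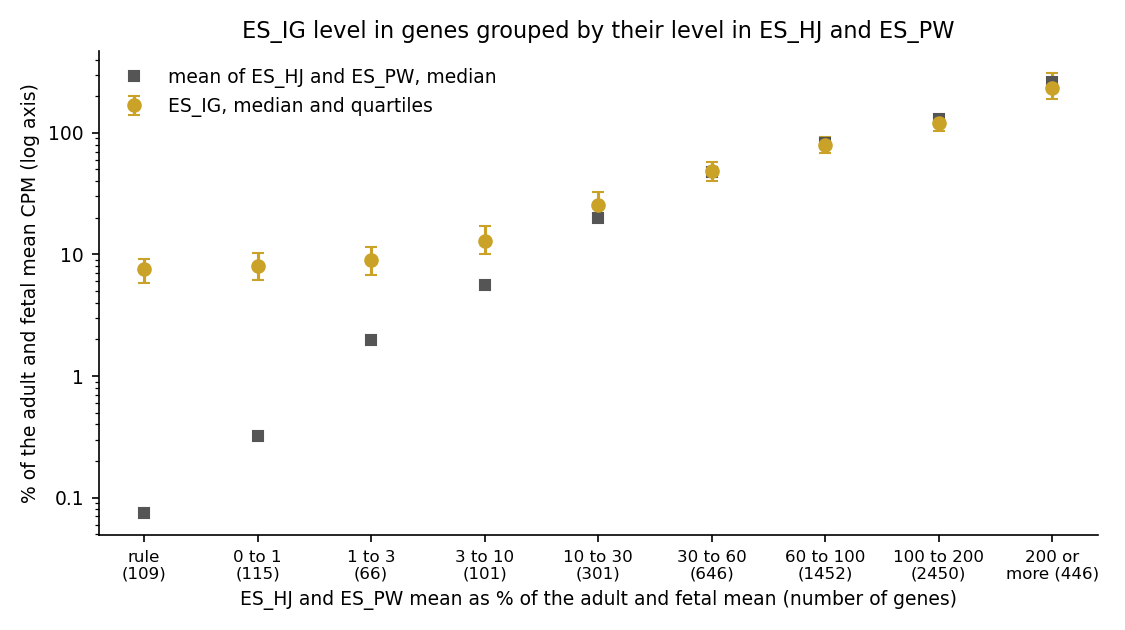
ES_IG level (circles, median with quartiles) and mean level of ES_HJ and ES_PW (squares, median) as percentages of the adult and fetal mean (log axis), for the 109 genes of the rule and for other genes classed by their level in ES_HJ and ES_PW. ES_IG stays between 7.57% and 9.02% in the first 3 classes while ES_HJ and ES_PW rise from 0.0748% to 1.99%. The medians lie close together from 30% to 100%. Above that the ES_IG median is lower, at 121% against 130% and 234% against 263%.

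No gene met the rule when another ESC-tenocyte line took the place of ES_IG. With ES_HJ held out and at most 3 counts asked of ES_IG and ES_PW, 0 genes met all conditions, and with ES_PW held out the number was also 0. Over all 5723 genes with at least 20 CPM in each of the 6 adult and fetal libraries, with no limit on the adult to fetal ratio, ES_IG was above 3 counts in all 5723 and its lowest level was 1.48% of the tenocyte mean.

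Genes expressed mainly in a single tenocyte line were also read in ES_IG. These were genes at the floor in ES_HJ and ES_PW with at least 5 CPM in 1 line and at least 5 times the level of each of the other 5. The pooled ES_IG level was 0.891% of the level in 319d over 18 such genes (77 ES_IG counts against 16701), 1.70% of that in 320d over 12 genes and 0.314% of that in 271d over 5. For the adult lines it was 0.931% (TB130911, 1 gene), 1.62% (TB250718B, 3 genes) and 0.173% (CD, 3 genes). None of the genes of TB130911, 271d and CD was above 3 counts in ES_IG. Each of these 3 classes summed to 2 ES_IG counts, so that their percentages are low and have a wide counting error. The same genes were also read as a percentage of the mean of the 6 tenocyte libraries, the measure used for the set. They stood at 4.93% (319d, with 8 of 18 genes above 3 counts), 6.81% (320d, 3 of 12) and 6.75% (TB250718B, 1 of 3, with 10 ES_IG counts in all). For the 3 classes with 2 ES_IG counts each, it was 5.50% (TB130911), 1.54% (271d) and 0.864% (CD). The values for 271d and CD were below the lowest percentage of any gene of the set (2.28%). The classes are small.

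Genes close to the limits of the rule were compared in ES_IG. The 17 genes with 3 counts in the higher of ES_HJ and ES_PW had a median ES_IG level of 8.91%, and the 44 genes just outside with 4 to 6 counts had 7.90%. The 19 genes whose lowest tenocyte library was 20 to 25 CPM had 7.20%, and the 26 just outside at 15 to 20 CPM had 6.42%. The 7 genes inside the ratio limit but beyond 3-fold had 7.86%, and the 3 genes beyond 4-fold had a lower median of 3.60% (1.62% to 4.04%). The counts were whole numbers in all 9 libraries, within 1e-06, for 86 of the 109 genes (78.9%) and for 69.2% of the 5577 others. A count that is not whole comes from reads that the quantification divided between transcripts of different genes.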

How the data were processed

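The authors quantified reads with Salmon against the Ensembl release 96 horse transcriptome (EquCab 3), summed them to genes with tximport in R 3.5.2, and deposited estimated counts per gene, not normalised, for 9 libraries. Their methods state that batch correction was applied, but no label assigns libraries to kits or providers, so batch was not a term here. The members, lists and alternatives were chosen with earlier results of these data known. CPM was the count divided by the column sum, and no column was left unmapped. Shares of a single library have exact Poisson intervals (95%). For tests, counts were rounded, filtered with filterByExpr, scaled by TMM (factors 0.906 to 1.12) and fitted with edgeR 4.0.16 (R 4.3.3, glmQLFit, group as the single term, all 9 libraries, Benjamini-Hochberg adjustment over all 13197 genes). DESeq2 1.42.0 was an alternative. The fit was tested on simulated data for adult against fetal (13197 genes): 52 of 100 genes changed by a log2 fold of 2 and 70 of 100 by 3 were recovered, with 0 false calls. The changed genes were drawn from all genes tested, whose median dispersion was 0.0533, against 1.04 for the set. No ESC difference was simulated, so these shares do not give the recovery for the set. The named identifiers are the members with the highest and lowest tenocyte mean and ES_IG percentage. Lines may share technical conditions, and p-values set a difference against the spread between lines of a group. In the fit of all 9 libraries this spread was estimated over adult, fetal and ESC lines together. Gene sequences, names and the marker lists were not used here because the identifiers had no match in the RefSeq table (39335 records). Other settings were limits on counts, CPM and ratio, scaling, filter, a depth term, p thresholds and each library left out.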

Additional observations from a re-analysis of the deposited data

How the results depend on the processing

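The number of genes in the set followed the limits of the rule. It was 23 with 0 counts required in ES_HJ and ES_PW, 180 with at most 10 counts, 180 with at least 10 CPM in the tenocyte libraries, 48 with at least 50 CPM, and 0 with ES_HJ or with ES_PW held out in place of ES_IG. Leaving out 1 adult or fetal library gave 108 to 121 genes. The median ES_IG percentage of the tenocyte mean was 7.07% to 7.74% over all 19 alternative settings, and 7.07% to 7.60% with 1 library left out. It was 7.12% against the shallower tenocyte libraries (CD and 320d), 7.72% against the deeper ones, and 7.48% with TMM-scaled CPM. The settings chosen after seeing the data, included the adult libraries alone (7.59%), the fetal libraries alone (7.68%) and DESeq2 on the 6 adult and fetal libraries, which called 24 genes between adult and fetal where the other 16 settings called 0. At the looser adjusted p under 0.05, edgeR on these 6 libraries called 18 (background 6.96%) and DESeq2 37 (background 15.8%). The cause was not tested. The median adult to fetal log2 fold change was 0.18, and 0.13 to 0.35 with 1 library left out. It was 0.35 without 320d. No paired analysis was possible because the labels give no replicate numbers and pair no lines of different groups. The folds over the 3-count floors of ES_HJ and ES_PW are the least that the measured counts allow, and do not include counting error. Differences among the genes under 0.319 and 0.335 CPM, the 3-count floors, were not detectable there.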
